A study of Mus musculus with 11 samples.

Results

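Cytosolic ribosomal protein genes were taken as the rows of a gene count table whose symbol was Rpsa or Rpl, Rps or Rplp followed by a number and at most the letter a or x. The rule found 75 genes among the 12647 rows, 45 of the large ribosomal subunit and 30 of the small subunit. The rule did not use any measured value, and it left out kinases, pseudogenes and genes named as like a ribosomal protein. Transcripts were counted by RNA-seq in LSK cells, which are mouse bone marrow cells without lineage markers that carry Sca1 and Kit and include the hematopoietic stem cells and early progenitors. Of the 9 libraries, 3 came from p53+/+ mice, 3 from p53R248W/+ mice and 3 from p53-/- mice. By the study's methods, all were young adults, and the labels give a C57BL/6 background. By the same methods, the p53+/+ mice carry a humanized p53 knock-in allele, and the p53R248W/+ mice carry 1 such allele with the R248W substitution, expressed from the endogenous Trp53 promoter. The p53-/- mice lack p53. No source used here says whether each library came from 1 mouse or from pooled mice, so p-values measure the spread between these libraries. The study asked how a p53 mutation found in clonal hematopoiesis, and loss of p53, alter gene expression in these cells, and the values below describe the ribosomal protein genes within those 3 genotype comparisons.

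Each cytosolic ribosome holds 1 copy of most ribosomal proteins, and their mRNAs are among the most abundant in growing cells. These mRNAs are known for a tract of pyrimidines at the 5' end, called a TOP motif, through which mTOR signalling and the protein Larp1 control their translation. In blood formation the family is known from Diamond-Blackfan anaemia, in which 1 ribosomal protein gene is deficient, red cell production fails and p53 is activated. Free Rpl5 and Rpl11 bind Mdm2, the ubiquitin ligase that degrades p53, and in this way link faulty ribosome assembly to p53.

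Promoter windows of 60 bases, 40 before the annotated start and 20 after it, are shown for 10 genes. These are named below for their level, fold change or known role, and other such genes, Rps14 and Rpl32 among them, are not shown. The sequences are from a RefSeq promoter table on the build GRCm38.p6, in which 55 of the 75 genes were matched, and capitals mark the longest unbroken run of C and T in the window.
Rpl13: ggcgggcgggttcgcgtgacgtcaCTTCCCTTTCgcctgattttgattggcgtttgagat
Rplp0: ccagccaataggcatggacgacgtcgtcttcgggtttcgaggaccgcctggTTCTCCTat
Rps12: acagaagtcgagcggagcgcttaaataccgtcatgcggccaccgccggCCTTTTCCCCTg
Rpl10: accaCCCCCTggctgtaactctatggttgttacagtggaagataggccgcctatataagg
Rpl4: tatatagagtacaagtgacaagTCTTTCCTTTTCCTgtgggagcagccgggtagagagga
Rps27: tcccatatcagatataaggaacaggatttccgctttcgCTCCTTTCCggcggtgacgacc
Rps6: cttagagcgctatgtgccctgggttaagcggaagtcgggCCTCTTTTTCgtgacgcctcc
Rpl11: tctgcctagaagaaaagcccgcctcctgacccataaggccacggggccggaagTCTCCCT
Rpl5: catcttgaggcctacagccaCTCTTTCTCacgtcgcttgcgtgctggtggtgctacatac
Rpsa: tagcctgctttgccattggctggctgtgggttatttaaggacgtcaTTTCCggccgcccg
The run had 14 bases in Rpl4, the longest shown, and 5 bases in Rpsa. In Rpl13, Rpl10, Rpl4 and Rpl5 it lay wholly before the annotated start, so it is not part of the annotated transcript there. On the plus strand, the windows lie at chr8:123102310-123102369 (Rpl13), chr5:115559427-115559486 (Rplp0), chrX:74270776-74270835 (Rpl10), chr9:64173347-64173406 (Rpl4), chr5:107900488-107900547 (Rpl5) and chr9:120127726-120127785 (Rpsa). On the minus strand they lie at chr10:23787190-23787249 (Rps12), chr3:90213629-90213688 (Rps27), chr4:86857348-86857407 (Rps6) and chr4:136053374-136053433 (Rpl11). A run of at least 8 bases, before or after the start, was present in 33 of the 55 genes (60.0%). It was present in 27.2% of the 9960 genes of the count table with an entry and 24.2% of all 32851 promoter entries. The shares below are given in the same order. A C at the start base followed by at least 4 bases of C or T, the letters of a TOP motif, was present in 13 of the 55 genes (23.6%), against 2.99% of those genes and 2.51% of entries. Over the whole 300 bases of an entry and on both strands, CTTCCG, the core letters bound by Ets family factors, was present in 38 of the 55 genes (69.1%), against 35.2% of genes and 16.9% of entries. AAGATGG, letters of the YY1 motif, was present in 9 genes (16.4%), against 8.5% of genes and 6.34% of entries. TATAAA was present in 6 genes (10.9%), against 8.74% of genes and 13.6% of entries. CACGTG, the E-box bound by Myc, was also present in 6 genes (10.9%), against 11.9% of genes and 7.15% of entries, so for these last motifs the members' share lay between the shares of genes and of entries. None of the 4 motifs contains another, CTTCCG can share letters with a run of C and T, and a match describes the window only.

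Library totals ran from 18021375 to 29750702 counts, and levels below are CPM, a count divided by the library's total after scaling by the trimmed mean of M-values (TMM) and put per 1000000. The p53 target gene Cdkn1a, which encodes the cell cycle inhibitor p21, read 67.0, 44.0 and 43.6 CPM in the p53+/+ libraries, 52.1, 37.7 and 35.6 in the p53R248W/+ libraries and 17.8, 8.27 and 10.9 in the p53-/- libraries. All 3 p53-/- libraries lay below all others in Cdkn1a. Trp53 itself read 124, 207 and 376 CPM in the p53+/+ libraries, 219, 240.5 and 235 in the p53R248W/+ libraries and 129, 126 and 112 in the p53-/- libraries. The Trp53 count in p53+/+ library 1 fell among those of the p53-/- libraries, and where the counted exons lie relative to the deletion is not given in the sources used here. The study describes the humanized allele of the other genotypes as encoding mostly human p53 sequence. How its reads aligned to the mouse genome is not given, so Trp53 counts may not be comparable as levels between genotypes. Reads from the Y-linked genes Ddx3y, Kdm5d, Eif2s3y and Uty summed to 110 CPM in p53+/+ library 2 and to 69.8 and 184 CPM in p53R248W/+ libraries 2 and 3. In the other 6 libraries, all p53-/- libraries among them, the sum was at most 0.216 CPM. Xist, which is transcribed from an inactive X chromosome, read 116 to 283 CPM in these 6 libraries. It read 65.0 CPM in p53+/+ library 2, and 149 and 6.26 CPM in p53R248W/+ libraries 2 and 3. Library 2 of both genotypes thus held Y-linked and Xist reads. Whether they came from mice of both sexes is not given in the sources used here. The LSK marker list, with all 10 genes detected, summed to 3395 to 5077 CPM.

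The ribosomal protein genes were abundant, but unevenly so. Their mean level was 410 CPM at the median gene, from 3.09 for Rps27 to 1865 for Rplp0, and the median of all genes tested was 35.2. Per kilobase of the deposited gene length, the median ribosomal protein gene read 696 CPM, against 11.1 for all genes tested, and 43 of the 75 were among the 100 genes of highest level on this scale. The highest per kilobase were Rpl32 (2424 CPM per kilobase), Rps14 (2223) and Rpl13 (1937), the first and last of the large subunit and Rps14 of the small subunit. The lowest were Rps27 (5.37 CPM per kilobase), Rpl30 (8.93) and Rpl34 (22.2). These 3 genes stood apart, since the other 72 all had mean levels above 100 CPM. Rps27 rested on as few as 35 counts in a library, Rpl30 on 74 and Rpl34 on 227. Ribosomal protein genes have many processed copies in the genome: the share of a gene's windows of 50 bases that also lay in a transcript of another annotated gene had a median of 41.8% and reached 86.7% for Rps18. How reads mapping to several places were counted is not given in the sources used here, so levels of genes with large shares are uncertain. The 3 low genes had shares of 63.1%, 29.7% and 6.9%, and the part of shared sequence in their levels was not tested. Rps15a had a deposited length of 5134 bases, against a median of 703 for the family, which lowers its level per kilobase (65.3 CPM) but does not enter its fold changes.

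Across libraries, the 75 genes moved together, and single libraries stood out more than genotypes did. Their summed counts made up 4.47%, 2.82% and 3.95% of the library in p53+/+, 5.36%, 3.46% and 3.78% in p53R248W/+ and 4.04%, 5.74% and 3.74% in p53-/-. The means were 3.75% ± 0.84 (SD, n = 3) in p53+/+, 4.20% ± 1.02 (SD, n = 3) in p53R248W/+ and 4.50% ± 1.08 (SD, n = 3) in p53-/-. The genotypes overlapped in this share, and their means differed by less than the spread within a genotype. For each gene, log2(CPM + 0.5) was set against its own mean over the 9 libraries. The median deviation of the 75 genes was 0.11, -0.57 and -0.01 in the p53+/+ libraries and 0.53, -0.23 and -0.13 in the p53R248W/+ libraries. In the p53-/- libraries it was -0.03, 0.49 and -0.18. Library 1 thus had the highest, library 3 the middle and library 2 the lowest median in both p53+/+ and p53R248W/+, but not in p53-/-. Whether same-numbered libraries were handled together is not given in the sources used here. The genotype means of these medians were -0.15, 0.05 and 0.09, with SDs of 0.36, 0.41 and 0.35 (n = 3 each), so the genotypes differed by less than the spread within any of them. As many as 72 of the 75 genes had their lowest value of the 9 in p53+/+ library 2, where 11.4% of all genes tested had theirs. The 3 exceptions were Rps27, Rpl21 and Rpl4. The highest value was in p53R248W/+ library 1 for 44 genes, where 17.4% of all genes had theirs, and in p53-/- library 2 for 28 genes, where 14.4% of all genes had theirs. The 3 exceptions were the genes of lowest level, Rpl30, Rps27 and Rpl34. Within p53+/+, library 2 was the lowest of the 3 for all 75 genes, against 29.1% of all genes. Within p53R248W/+, library 1 was the highest for 74 genes, against 41.9% of all genes, and within p53-/-, library 2 was the highest for all 75, against 36.5%.

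**Figure D1:**
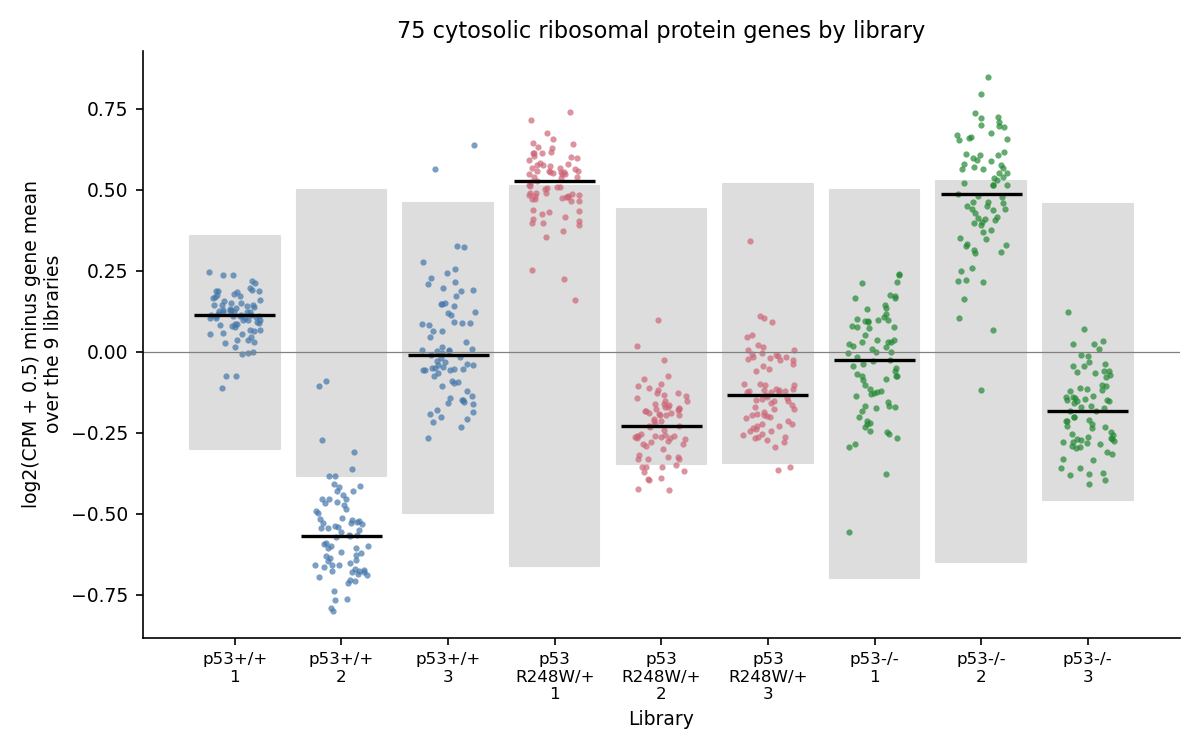
Deviation of log2(CPM + 0.5) from each gene's mean over the 9 libraries (y axis) for the 75 ribosomal protein genes (points) in each library (x axis, coloured by genotype); black bars are medians and grey boxes span the first to the ninth decile of all genes tested. Medians were -0.57 in p53+/+ library 2, 0.53 in p53R248W/+ library 1 and 0.49 in p53-/- library 2, and between -0.23 and 0.11 in the other 6.

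The p53+/+ library of lowest ribosomal protein level and the p53R248W/+ libraries 2 and 3 were the 3 with Y-linked reads, with median deviations from -0.57 to -0.13, and the 6 without Y-linked reads ran from -0.18 to 0.53. Short genes in general moved in the same libraries. The other 905 genes tested with a deposited length under 1000 bases had median deviations of 0.07, -0.31 and 0.06 in the p53+/+ libraries, 0.46, -0.11 and -0.08 in the p53R248W/+ libraries and -0.11, 0.23 and -0.19 in the p53-/- libraries. Library 2 was the lowest p53+/+ library for these genes too, and libraries p53R248W/+ 1 and p53-/- 2 were again the highest of their genotypes. The part of either feature in the ribosomal protein levels was not tested beyond the fits given with each comparison.

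Comparing p53R248W/+ with p53+/+ cells, which addresses the effect of the mutant allele, no ribosomal protein gene was called, although nearly all had fitted values on the same side. In edgeR's quasi-likelihood test 0 of the 75 genes were higher or lower at an adjusted p below 0.05, and 0 had an unadjusted p below 0.05. Of all 12625 genes tested, 0.00792% were called higher, 0.0% were called lower and 0.958% had an unadjusted p below 0.05. DESeq2 and limma-voom also called 0 of the 75, against 6 and 1 of all genes. The fitted log2 fold change was above 0 for 74 of the 75 genes, against 52.5% of all genes, with a median of 0.22 and a range from -0.02 to 0.38. The median of all genes tested was 0.01. The standard error of a single gene had a median of 0.27, larger than the median fold change, so a shift of this size was not detectable gene by gene in 3 libraries against 3. The large and small subunit genes had medians of 0.20 and 0.22.

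Rps12, a small subunit protein, had the smallest p among the members with positive values, with a log2 fold change of 0.38 ± 0.31 (SE) and an adjusted p of 1 (edgeR). It read 333, 183 and 269 CPM in the p53+/+ libraries, 481, 252 and 289 in the p53R248W/+ libraries and 262, 441 and 235 in the p53-/- libraries. The highest p53R248W/+ library was above all p53+/+ libraries, while the other two lay within their range. Rpl39, an X-linked large subunit protein at the peptide exit tunnel, had 0.36 ± 0.32 and read 212, 108 and 171 CPM in the p53+/+ libraries, 300.2, 165 and 164 in the p53R248W/+ libraries and 198, 300.1 and 154 in the p53-/- libraries. At the other end, Rpl34 had -0.02 ± 0.30 and Rpl29 had 0.05 ± 0.21. Rpl34 read 14.1, 11.3 and 22.2 CPM in the p53+/+ libraries, 21.3, 12.4 and 13.1 in the p53R248W/+ libraries and 14.7, 16.0 and 12.3 in the p53-/- libraries. Rpl29 read 168, 135 and 204 CPM in the p53+/+ libraries, 214, 150.4 and 161 in the p53R248W/+ libraries and 138, 183 and 135 in the p53-/- libraries. For none of the 75 genes did all p53R248W/+ libraries lie above, or all below, the p53+/+ libraries; of all genes tested 2.66% lay wholly above and 2.38% wholly below.

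Single libraries carried this shift. Without p53R248W/+ library 1 the median log2 fold change was -0.08 with 11 of the 75 genes above 0, and without p53+/+ library 2 it was 0.03 with 53 above 0. Leaving out any other library gave medians from 0.21 to 0.35. When the presence of Y-linked reads was added as a term, an analysis chosen after seeing the data, the median was 0.43 and all 75 genes were above 0. In that fit 49 of the 75 genes had an unadjusted p below 0.05, against 6.76% of all genes, and 0 passed the adjusted threshold, with a smallest adjusted p of 0.656. The median was 0.44 within the libraries without Y-linked reads and 0.40 within those with them, but the first value rests on p53R248W/+ library 1 alone and the second on p53+/+ library 2 alone, the same 2 libraries as above. With a loess trend of the fold change on gene length and level removed, also chosen after seeing the data, the median was 0.06 with 61 of the 75 genes above 0.

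**Figure D2:**
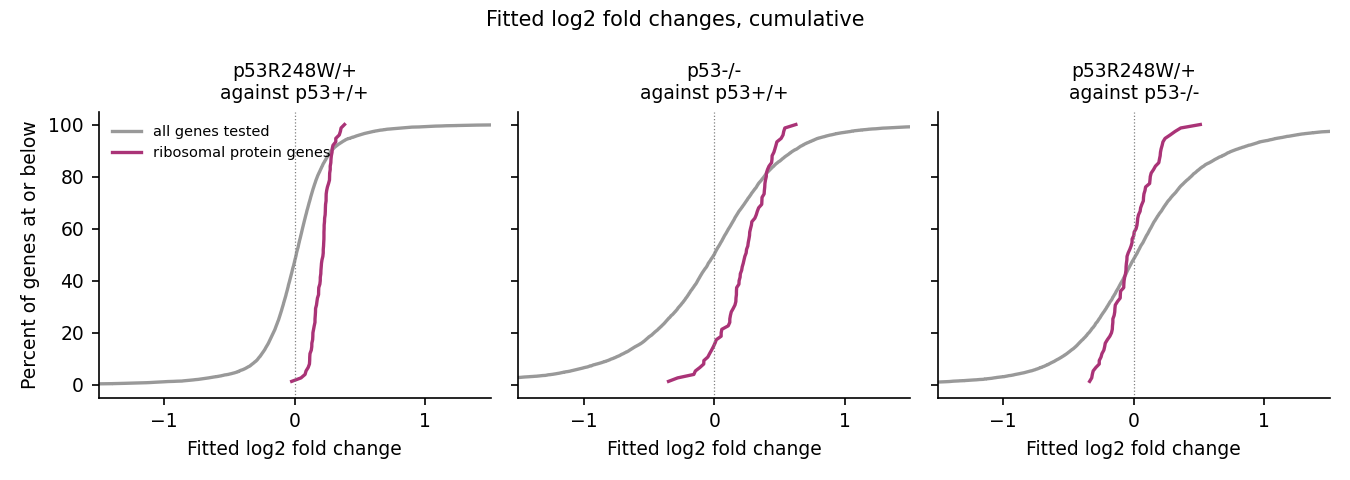
Cumulative percent of genes (y axis) at or below each fitted log2 fold change (x axis, the tails not shown) for the 75 ribosomal protein genes and all 12625 genes tested, in the 3 comparisons. The ribosomal protein curve lies right of the curve of all genes at its middle in both comparisons with p53+/+, with medians of 0.22 and 0.24, and near it in the third, with a median of -0.04.

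Comparing p53-/- with p53+/+ cells, which addresses loss of p53, again no ribosomal protein gene was called, and individual genes spread more widely. In edgeR 0 of the 75 genes passed an adjusted p of 0.05 in either direction and 0 had an unadjusted p below 0.05. Of all genes tested, edgeR called 1.25% higher and 2.25% lower, and 23.4% had an unadjusted p below 0.05. DESeq2 and limma-voom also called 0 of the 75, against 1552 and 297 of all genes. The log2 fold change was above 0 for 64 of the 75 genes, against 49.9% of all genes, with a median of 0.24 and a range from -0.35 to 0.62. The median of all genes was -0.00. Small subunit genes had a median of 0.29, with 28 of 30 above 0, and large subunit genes a median of 0.17, with 36 of 45 above 0.

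Rps14, a small subunit protein whose loss of 1 copy underlies the anaemia of the chromosome deletion form of myelodysplastic syndrome, had the largest value, 0.62 ± 0.31 (adjusted p = 0.253, edgeR). It read 1381, 723 and 1072 CPM in the p53+/+ libraries, 1850, 956 and 1069 in the p53R248W/+ libraries and 1416, 2262 and 1219 in the p53-/- libraries. The mean was 1632 ± 554 CPM (SD, n = 3) in p53-/- and 1058 ± 329 (SD, n = 3) in p53+/+. The lowest p53+/+ library and the highest p53-/- library were the same ones that stood apart for the whole family. Rpl32, of the large subunit, had 0.54 ± 0.30 and read 1330, 699 and 971 CPM in the p53+/+ libraries, 1726, 912 and 996 in the p53R248W/+ libraries and 1319, 1924 and 1120 in the p53-/- libraries.

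Rpl10, an X-linked large subunit protein at chrX:74270816-74273135 that is needed for joining of the subunits, had the smallest p of the positive values, with 0.53 ± 0.26 (adjusted p = 0.247, edgeR). It read 543, 322 and 440.5 CPM in the p53+/+ libraries, 700.4, 411 and 393 in the p53R248W/+ libraries and 564, 768 and 548 in the p53-/- libraries. It was the only member with all p53-/- libraries above all p53+/+ libraries, as 15.4% of all genes were. As many as 85.4% of its windows were shared with other annotated genes. Rpl4, a long core protein of the large subunit at chr9:64173387-64178562, went the other way, with -0.28 ± 0.15 (adjusted p = 0.275, edgeR). Rpl4 read 1272, 1151 and 1433 CPM in the p53+/+ libraries, 1459, 1310 and 1306 in the p53R248W/+ libraries and 1031, 1128 and 1016 in the p53-/- libraries. No other member had its 3 p53-/- values wholly under the p53+/+ range, which 16.0% of all genes did. Rpl30, counted at a very low level, had -0.35 ± 0.37 and read 4.94, 3.79 and 8.64 CPM in the p53+/+ libraries, 8.48, 5.44 and 5.44 in the p53R248W/+ libraries and 4.03, 5.65 and 3.93 in the p53-/- libraries.

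The members' fold changes in this comparison went with their level per kilobase. Across the 75 genes, Pearson's r between the log2 fold change and log2 CPM per kilobase was 0.60 and Spearman's rho was 0.59, against a Pearson's r of 0.10 across all genes tested. Genes are not independent replicates, and the level includes the p53-/- libraries, so the values are a description. The same r was 0.27 (rho 0.17) for p53R248W/+ against p53+/+ and -0.56 (rho -0.61) for p53R248W/+ against p53-/-, and each pair of comparisons shares a genotype's libraries. For p53-/- against p53+/+, the r between fold change and the share of windows held in common with other genes was 0.04.

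**Figure D3:**
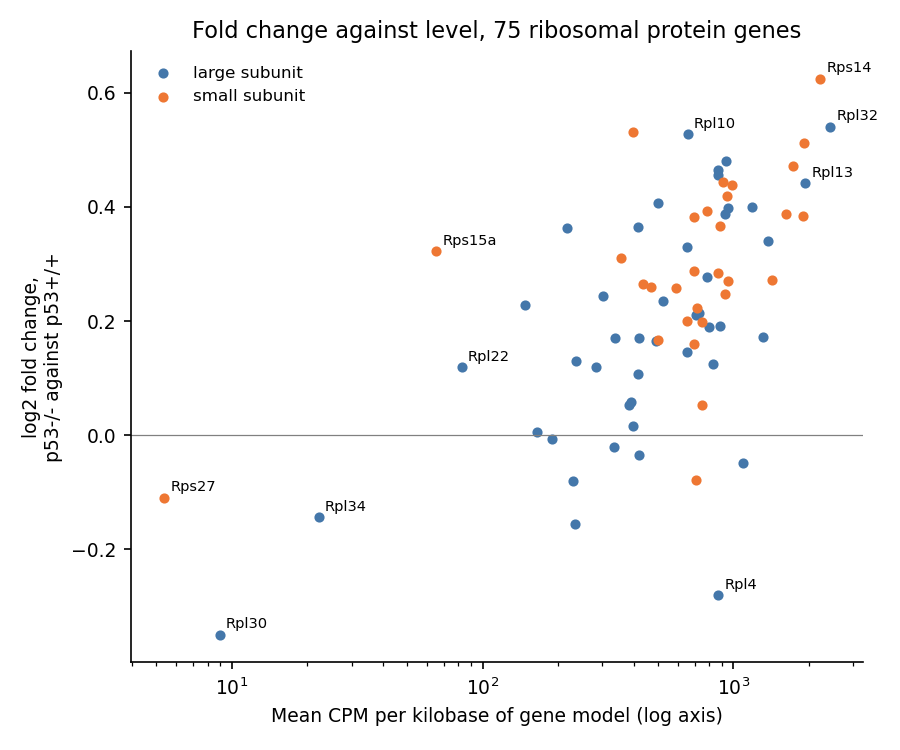
Log2 fold change of p53-/- against p53+/+ (y axis) against mean CPM per kilobase of the deposited gene length (x axis, log scale) for the 75 genes, coloured by subunit. Rps14 and Rpl32 are high on both axes, the low-level genes Rps27, Rpl30 and Rpl34 lie below 0, and Rpl4 has the lowest fold change of the abundant genes, -0.28.

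Here too single libraries decided the median. It was 0.01 without p53-/- library 2, with 40 of the 75 genes above 0, and 0.05 without p53+/+ library 2, with 46 above 0, and it ran from 0.24 to 0.37 when any other library was left out. With Y-linked reads as a term it was 0.06, with 45 genes above 0 and 1 gene at an unadjusted p below 0.05, against 23.0% of all genes. Within the libraries without Y-linked reads, where all 3 p53-/- libraries met p53+/+ libraries 1 and 3, it was also 0.06. For these genotypes, those are the same libraries as without p53+/+ library 2. No p53-/- library held Y-linked reads, so the values of 0.05, 0.06 and 0.06 are not separate results. With the trend on length and level removed the median was 0.15. The number of genes called stayed at 0 in each of these fits that gave a test.

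Between p53R248W/+ and p53-/- cells, which differ in both p53 alleles, the ribosomal protein genes lay on both sides of 0. The median log2 fold change was -0.04, with 33 of the 75 genes above 0 against 51.7% of all genes, and a range from -0.34 to 0.51. In edgeR 0 of the 75 genes were called, against 2.34% of all genes called higher and 1.1% called lower. DESeq2 and limma-voom also called 0 of the 75, against 1325 and 333 of all genes. At an unadjusted p below 0.05 there was 1 member, Rpl4, against 21.0% of all genes. Rpl4 had a log2 fold change of 0.36 ± 0.15 (unadjusted p = 0.0309, adjusted p = 0.189, edgeR) and means of 1358 ± 87.1 CPM in p53R248W/+ and 1059 ± 60.7 CPM in p53-/- (SD, n = 3 each). All its p53R248W/+ libraries lay above all p53-/- libraries, as for 12.1% of all genes, and no member lay wholly below, as 12.0% of all genes did. The p53-/- libraries of Rpl4 are those of the previous comparison, so both results share them.

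The most negative values were -0.34 ± 0.31 for Rps14 and -0.32 ± 0.26 for Rpl10, and the smallest p among negative values belonged to Rpl3, with -0.32 ± 0.23 (adjusted p = 0.475, edgeR). Rpl3, a core protein of the large subunit near the peptidyl transferase centre, read 1251, 802 and 995 CPM in the p53+/+ libraries, 1508, 895 and 955 in the p53R248W/+ libraries and 1326, 1655 and 1202 in the p53-/- libraries. The highest value was 0.51 ± 0.37 for the weakly counted Rpl30. Large subunit genes had a median of 0.00 and small subunit genes a median of -0.09. The median was -0.32 without p53R248W/+ library 1 and 0.20 without p53-/- library 2, and without p53R248W/+ library 2 or 3 it was 0.09 or 0.05. With Y-linked reads as a term it was 0.35, with all 75 genes above 0. In that fit 23 had an unadjusted p below 0.05, against 21.7% of all genes, and 0 were called. The genes moved together, so the 23 are not separate results. Within the libraries without Y-linked reads the median was 0.36, a value that rests on p53R248W/+ library 1 alone. With the trend on length and level removed it was -0.08.

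**Figure D4:**
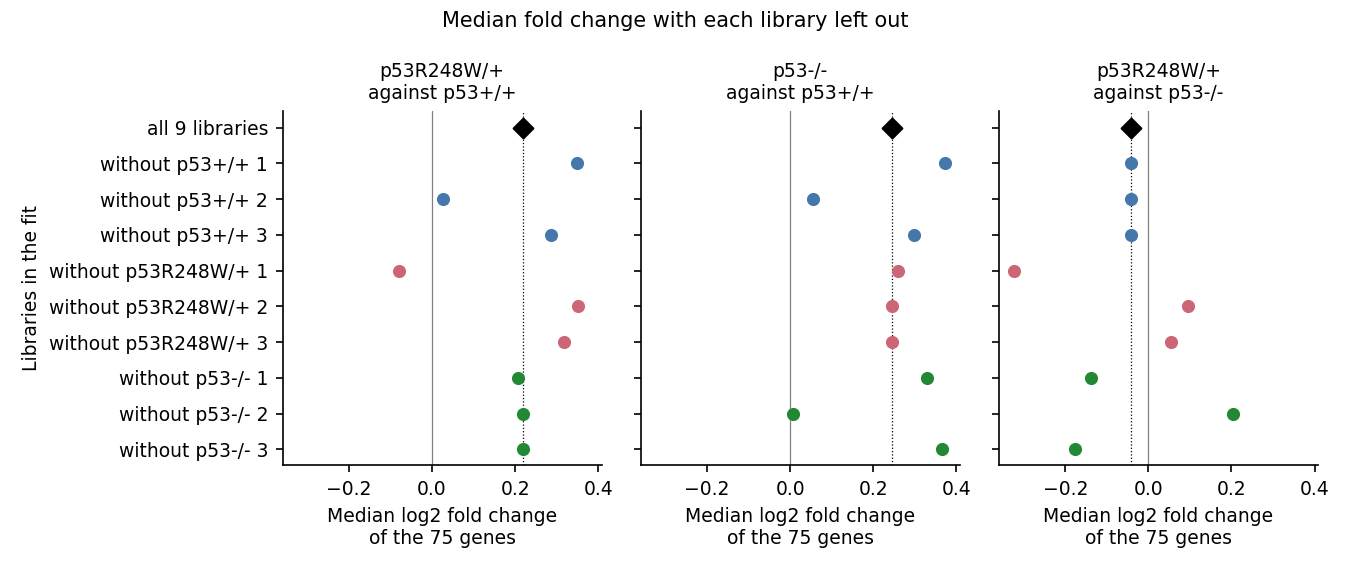
Median log2 fold change of the 75 genes (x axis) with all 9 libraries (black diamonds, dotted lines) and with each library left out in turn (y axis, circles coloured by genotype), for the 3 comparisons. Leaving out p53R248W/+ library 1, p53+/+ library 2 or p53-/- library 2 brought the medians they enter to between -0.32 and 0.20, while other omissions from the 2 comparisons with p53+/+ gave 0.21 to 0.37.

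Members with known roles in the p53 response and in blood disease had their lowest value in p53+/+ library 2 and their highest in p53R248W/+ library 1 or p53-/- library 2, like most of the family. Rpl5 read 376, 281 and 455 CPM in the p53+/+ libraries, 528, 350.4 and 351 in the p53R248W/+ libraries and 315, 470.4 and 321 in the p53-/- libraries. Rpl11, its partner in the complex that binds Mdm2, read 252, 189 and 286 CPM in the p53+/+ libraries, 334, 234 and 247.6 in the p53R248W/+ libraries and 219, 286 and 204 in the p53-/- libraries. Their log2 fold changes in p53-/- against p53+/+ were -0.01 ± 0.24 and -0.04 ± 0.21, both less than 1 SE from 0. Rps19, the gene most often mutated in Diamond-Blackfan anaemia, read 1305, 742 and 1031 CPM in the p53+/+ libraries, 1662, 897 and 1036 in the p53R248W/+ libraries and 1230, 1746 and 1039 in the p53-/- libraries. Its log2 fold change was 0.38 ± 0.28 in p53-/- against p53+/+ and 0.22 ± 0.28 in p53R248W/+ against p53+/+. Rpl22, needed for lymphoid development, read 228, 146 and 199 CPM in the p53+/+ libraries, 279, 178 and 198 in the p53R248W/+ libraries and 175, 261 and 186 in the p53-/- libraries. Its fold changes were 0.12 ± 0.23 and 0.19 ± 0.23 in the same order. In all 4 genes p53+/+ library 2 was the lowest p53+/+ value, and the genotypes overlapped.

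Rps6, whose phosphorylation is a common readout of mTOR signalling, read 643, 415 and 573 CPM in the p53+/+ libraries, 833, 519 and 515 in the p53R248W/+ libraries and 594, 785 and 581 in the p53-/- libraries. The stalk proteins recruit elongation factors to the ribosome. Rplp0, the base of the stalk and the most abundant member, read 1931, 1299 and 1780 CPM in the p53+/+ libraries, 2541, 1480 and 1414 in the p53R248W/+ libraries and 2111, 2425 and 1806 in the p53-/- libraries. Rplp1 read 565, 347 and 513 CPM in the p53+/+ libraries, 762, 438 and 478 in the p53R248W/+ libraries and 512, 889 and 478 in the p53-/- libraries. Rplp2 read 421, 246 and 379 CPM in the p53+/+ libraries, 595, 335 and 344 in the p53R248W/+ libraries and 398, 638 and 332 in the p53-/- libraries. The 3 stalk genes had log2 fold changes of 0.12, 0.24 and 0.29 in p53R248W/+ against p53+/+ and 0.34, 0.40 and 0.39 in p53-/- against p53+/+, none of them called. Like most of the family, all 3 had p53+/+ library 2 as their lowest value and p53R248W/+ library 1 or p53-/- library 2 as their highest. Rpsa, which is also known as a laminin receptor, read 1407, 883 and 1183 CPM in the p53+/+ libraries, 1750, 1040 and 1156 in the p53R248W/+ libraries and 1154, 1920 and 1166 in the p53-/- libraries. Rps27a, made as a fusion with ubiquitin, read 569.7, 343 and 527 CPM in the p53+/+ libraries, 808, 457 and 480.5 in the p53R248W/+ libraries and 496, 708 and 450.1 in the p53-/- libraries. Rpl41, the smallest of the proteins, read 529.6, 322 and 544 CPM in the p53+/+ libraries, 739.5, 424 and 516 in the p53R248W/+ libraries and 411, 571 and 366 in the p53-/- libraries. In Rpsa p53-/- library 2 was the highest of the 9, and in Rps27a and Rpl41 p53R248W/+ library 1 was.

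Of the X-linked members other than Rpl10 and Rpl39, Rps4x read 702, 472 and 644 CPM in the p53+/+ libraries, 889, 555 and 580.4 in the p53R248W/+ libraries and 586, 971 and 528 in the p53-/- libraries. Rpl36a read 214, 137 and 209.9 CPM in the p53+/+ libraries, 286, 181 and 196 in the p53R248W/+ libraries and 176, 267 and 162 in the p53-/- libraries. Both had p53+/+ library 2, which held Y-linked reads, as their lowest value, like the autosomal members. Rpl13a, often used as a reference gene in quantitative PCR, read 585, 344 and 515 CPM in the p53+/+ libraries, 764, 435 and 500.3 in the p53R248W/+ libraries and 465, 772 and 462 in the p53-/- libraries. Its lowest library was p53+/+ 2 and its highest p53-/- 2. Rpl13, among the highest per kilobase, read 1613, 992 and 1321 CPM in the p53+/+ libraries, 1948, 1130 and 1223 in the p53R248W/+ libraries and 1611, 2305 and 1420 in the p53-/- libraries. Rps27, the lowest member, read 3.17, 2.79 and 3.35 CPM in the p53+/+ libraries, 3.45, 2.46 and 3.98 in the p53R248W/+ libraries and 1.9, 3.61 and 3.09 in the p53-/- libraries.

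Genes close to the family in function shared its library order in part. Ribosomal proteins and paralogs outside the symbol rule, among them Rps3a1, Fau and Gnb2l1 (Rack1), had 9 of 13 listed genes tested, with 0 called in any comparison and median log2 fold changes of 0.19, 0.26 and 0.00 in the order given above. Their median deviation was -0.51 in p53+/+ library 2, 0.50 in p53R248W/+ library 1 and 0.43 in p53-/- library 2. The 18 translation factors known for TOP mRNAs, such as Eef1a1 and Eef2, had medians of 0.07, 0.08 and -0.09 with 0 called, and deviations of -0.36, 0.42 and 0.25 in the same 3 libraries. The 77 mitochondrial ribosomal protein genes, which serve another ribosome, had medians of 0.11, 0.07 and 0.03 with 0 called, and deviations of -0.33, 0.45 and 0.21.

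**Figure D5:**
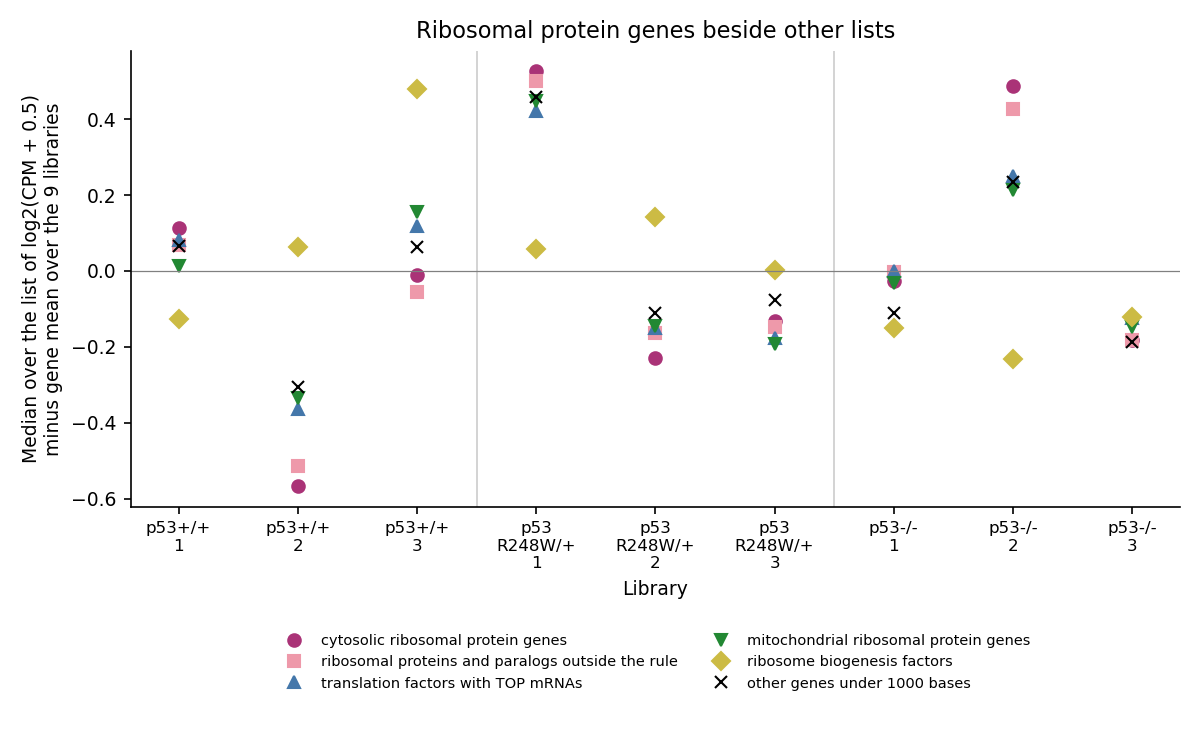
Median over each gene list of log2(CPM + 0.5) minus the gene's mean over the 9 libraries (y axis) in each library (x axis) for the cytosolic ribosomal protein genes, 4 related lists and the other genes under 1000 bases. In p53+/+ library 2 every list but the ribosome biogenesis factors (0.06) lies below -0.30, and p53R248W/+ library 1 is the highest library for each list but that one.

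The 63 ribosome biogenesis factors, which process and assemble ribosomal RNA, had another order of libraries. Their median deviations were -0.13, 0.06 and 0.48 in the p53+/+ libraries and 0.06, 0.14 and 0.00 in the p53R248W/+ libraries. In the p53-/- libraries they were -0.15, -0.23 and -0.12. Library 1 of p53+/+ lay within the p53-/- range, and p53+/+ library 3 was the highest of the 9, so a single library stood out here too. The median log2 fold change of the 63 factors was -0.04 in p53R248W/+ against p53+/+, with 0 called. In p53-/- against p53+/+ it was -0.29, with 4 called lower and 0 higher, against 2.25% and 1.25% of all genes. There 25 of the 63 had an unadjusted p below 0.05 (edgeR), against 23.4% of all genes. Between p53R248W/+ and p53-/- the median was 0.24, with 3 called higher and 0 lower, against 2.34% and 1.1% of all genes. In that comparison 18 of the 63 had an unadjusted p below 0.05 (edgeR), against 21.0% of all genes. Nop58, a core protein of the particles that guide ribosomal RNA methylation, read 188, 228 and 214 CPM in the p53+/+ libraries, 266, 266 and 244 in the p53R248W/+ libraries and 138, 110.1 and 116 in the p53-/- libraries. It fell in p53-/- by 0.79 on the log2 scale against p53+/+ (adjusted p = 0.0272, edgeR). Dkc1, the pseudouridine synthase of ribosomal RNA and a part of telomerase, had -1.42 ± 0.25 in the same comparison (adjusted p = 0.0183, edgeR), and the nucleolar protein Ncl had -1.20 ± 0.27 (adjusted p = 0.0393, edgeR). Each of these calls was lost when 1 of several single libraries was left out, for Nop58 in 5 of the 9 omissions, for Dkc1 in 4 and for Ncl in 6, with the direction kept, and that of Ncl was also lost with limma-voom. Against p53-/-, Nop58 was higher in p53R248W/+ by 1.09 ± 0.16 (adjusted p = 0.00681, edgeR), a call that held in all 9 omissions. In that comparison Dkc1 had 1.28 ± 0.25 (adjusted p = 0.0234, edgeR), a call lost in 5 omissions, and Mphosph10, which acts in the processing of the small subunit's RNA, had 0.95 ± 0.23 (adjusted p = 0.0432, edgeR), a call lost in 6 omissions and with limma-voom.

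Of 15 genes of RNA polymerase I transcription, 1 was called, the initiation factor Rrn3, with 0.74 ± 0.18 in p53-/- against p53+/+ (adjusted p = 0.0483, edgeR), a call lost in 8 of the 9 omissions and with limma-voom. Of 15 regulators of ribosomal protein synthesis, 1 was called, Mycn, with 0.82 ± 0.17 (adjusted p = 0.0294, edgeR), lost in 6 of the 9 omissions. In p53R248W/+ against p53-/-, Mycn had -0.92 ± 0.17 (adjusted p = 0.0195, edgeR), lost in 4. There 2.34% of all genes were called higher and 1.1% lower. Myc, which drives ribosomal protein gene transcription, read 392, 492 and 568 CPM in the p53+/+ libraries, 356, 594 and 493 in the p53R248W/+ libraries and 701, 607 and 617 in the p53-/- libraries. Mtor, the kinase upstream of TOP mRNA translation, read 25.9, 45.1 and 35.4 CPM in the p53+/+ libraries, 24.8, 42.1 and 47.6 in the p53R248W/+ libraries and 22.0, 19.5 and 41.8 in the p53-/- libraries. Its log2 fold change in p53-/- against p53+/+ was -0.35 ± 0.33 and that of Myc was 0.41 ± 0.21, neither called. Mdm2 read 74.3, 80.2 and 62.2 CPM in the p53+/+ libraries, 67.5, 70.8 and 75.0 in the p53R248W/+ libraries and 86.4, 74.7 and 72.9 in the p53-/- libraries. Of the 10 genes of the p53 response list only Cdkn1a was called, with -2.07 ± 0.30 in p53-/- against p53+/+ (adjusted p = 0.00914, edgeR). Of all genes, 1.25% were called higher and 2.25% lower in that comparison, and 23.4% had an unadjusted p below 0.05 (edgeR). At that unadjusted level were 5 of the RNA polymerase I genes, 5 of the regulators and 4 of the p53 response list.

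Some cell state and cell type markers were called between genotypes. Of 20 cell cycle genes, 2 were called lower in p53-/- than in p53+/+, and of 14 immediate early and heat shock genes 4 were, beside 2.25% of all genes called lower and 1.25% called higher in that comparison. Between p53R248W/+ and p53-/-, 2 cell cycle genes and 4 immediate early and heat shock genes were called higher in p53R248W/+. Of all genes, 2.34% were called higher and 1.1% lower in that comparison. Of the 10 LSK markers 1 was called higher in p53-/- than in p53+/+, and 3 were called lower in p53R248W/+ than in p53-/-. Of the 8 granulocyte and monocyte markers, 0 were called in either comparison with p53+/+ and 2 were called higher in p53R248W/+ than in p53-/-. Their summed level was 2795, 7330 and 4021 CPM in p53+/+, 5444, 9130 and 4267 in p53R248W/+, and 2299, 2492 and 1990 in p53-/-. Library 2 was thus the highest for these markers in p53+/+ and in p53R248W/+, where the ribosomal protein genes were lowest. The order differed elsewhere: p53R248W/+ library 1, highest for the ribosomal protein genes, lay between the others of its genotype for the markers. In p53-/-, library 2 was the highest for both. B lymphoid markers, 6 of 7 tested, summed to 76.3 to 133 CPM, T and NK lymphoid markers, 3 of 6 tested, to 202 to 416 CPM, and megakaryocyte markers, 6 of 6 tested, to 124 to 195 CPM. Erythroid markers, 4 of 8 tested, summed to 21.9 to 86.3 CPM, and the globin genes on that list were not analysed here. Of the stromal and endothelial list, 1 of 5 genes was tested, and it and 1 T and NK marker were called higher in p53R248W/+ than in p53-/-, the only calls among these further marker lists. A change in the share of a cell type and a change in RNA per cell cannot be told apart in such bulk libraries, and the part of these markers in the ribosomal protein values was not tested.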

How the data were processed

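RNA-seq was performed on LSK cells by the authors. Per the labels, cDNA was made with the SMART-Seq v4 kit. The study's methods instead describe mRNA capture on oligo(dT) beads, fragmentation and random hexamer priming, and which protocol applies is not given. The submitters' processing notes name STAR 2.5.2b, featureCounts, Subread 1.5.0, edgeR and mm10, without roles. How multi-mapped reads and strand were handled is not given in the sources used here. The deposited table holds raw counts per gene for 9 libraries, with gene length. Its columns of the authors' own comparisons (log2 fold changes, p-values and adjusted p-values) were not used, and 2 H3K27me3 ChIP-seq samples were not analysed here. In the present work, genes were tested with edgeR 4.0.16 (filterByExpr, TMM, glmQLFit, glmQLFTest, with all 9 libraries in 1 fit) in R 4.3.3, which tested 12625 genes and all 75 members, with Benjamini-Hochberg adjustment over all genes. The SE of a log2 fold change was its size divided by the square root of F. Alternatives used DESeq2 1.42.0 and limma 3.58.1 (voom), other scalings, filters and each library left out. Scripts were tested on simulated data. Samples were grouped by the labelled genotype. The members and gene lists were chosen with earlier results of these data known. Members named are those of fixed roles, those of smallest p per direction, the 2 farthest above and below the members' median in each comparison, and the 3 highest and lowest per kilobase, and from other lists up to 3 called genes.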

Additional observations from a re-analysis of the deposited data

How the results depend on the processing

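In every alternative fit with a test, DESeq2 and limma-voom included, 0 of the 75 genes passed an adjusted p of 0.05 in any comparison. Calls over all genes varied between these fits. In p53-/- against p53+/+ they ran from 1, with libraries scaled to the members, to 1552 with DESeq2. At a threshold of 0.1 the fit described in the methods also called 0, while the smallest adjusted p of a member between p53R248W/+ and p53-/- was 0.0747 without p53R248W/+ library 1 and 0.0765 with Y-linked reads as a term. The median log2 fold change was 0.19 to 0.22 for p53R248W/+ against p53+/+, 0.22 to 0.26 for p53-/- against p53+/+ and -0.07 to -0.04 between p53R248W/+ and p53-/- under other scalings, filters, tools, the 6 libraries of a comparison and the replicate block. The replicate block, with medians of 0.20, 0.26 and -0.07, changed no call. Replicate numbers were not taken as pairs in the main fit. The correlation of same-numbered libraries was 0.361, 0.543 and 0.0388 for the 3 pairs of p53R248W/+ and p53+/+. In pairs with p53-/- it ran from -0.108 to 0.132. Deposited library names follow a like scheme in p53+/+ and p53R248W/+ and another in p53-/-, and their meaning is not given in the sources used here. The replicate block paired all 3 genotypes, and an effect shared by p53R248W/+ and p53+/+ pairs alone was not tested. The members' median deviations had the same order of libraries in p53R248W/+ and p53+/+, and the part of such pairs in that order was not tested. At an unadjusted p below 0.05, 1 gene was higher in p53R248W/+ than in p53-/-. With single libraries left out, the medians ran from -0.080 to 0.35, from 0.0066 to 0.37 and from -0.32 to 0.20. With Y-linked reads as a term, or in the libraries without them only, the median between p53R248W/+ and p53-/- was 0.35 or 0.36. Scaling the libraries to the members themselves moved the median of all genes to -0.19, -0.23 and 0.05, and 0 members were called. The share of counts without 1 library ran from 3.39 to 4.21% in p53+/+, 3.62 to 4.57% in p53R248W/+ and 3.89 to 4.89% in p53-/-.

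Among single genes, the sign of Rpl34 in p53R248W/+ against p53+/+ turned with limma-voom (0.023), with Y-linked reads as a term (0.20), and in the libraries without (0.22) or with (0.18) Y-linked reads, and ran from -0.33 to 0.30 with 1 library left out. With 1 library left out, Rpl29 ran from -0.14 to 0.21 and Rpl39 from -0.012 to 0.59 in the same comparison, and Rpl30 from -0.58 to 0.057 in p53-/- against p53+/+. In p53R248W/+ against p53-/-, Y-linked reads as a term, or only libraries without them, gave 0.097 or 0.14 for Rpl10, 0.041 or 0.097 for Rpl3 and 0.15 or 0.16 for Rps14. The cause of these changes was not tested. In every library 72 members had over 1000 counts, and Rpl34, Rpl30 and Rps27 had as few as 227, 74 and 35.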
